A study of Homo sapiens with 18 samples.

Results

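The response of MondoA-depleted RPE-1 cells to doxorubicin (DXR) was measured by RNA sequencing. RPE-1 is an established human line of retinal pigment epithelial cells immortalized with telomerase (hTERT). The members were chosen by their labels and number 6 of the 18 libraries of the series. They are 3 libraries of cells that received an siRNA to MLXIP (the gene that encodes MondoA) before DXR (siMondoA DXR), and 3 libraries of cells that received the same siRNA and no DXR (siMondoA untreated). The other 12 libraries are 3 each of siMlx DXR, siMlx untreated, siControl DXR and siControl untreated cells, where siMlx targets MLX and siControl is the control siRNA. All groups were transfected with Lipofectamine RNAiMax. Transfection lasted 2 days and was followed, in the DXR groups, by 3 days in 150 ng/ml DXR. The series carries MondoA, senescence, autophagy and mitochondria in its title, and the comparison asks which genes respond to DXR when MondoA is low.

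Several limits hold for every value. The labels do not say when the untreated cells were collected, and library names begin with D5 in the DXR groups and D0 in the untreated groups, marks that are not explained. A difference in harvest day therefore cannot be told apart from DXR. The labels do not say that the 3 libraries of a group are separate cultures either, so a p-value reflects the spread among the 6 groups' libraries alone, which may be technical. In bulk RNA, fewer cells of a kind and less RNA per cell cannot be told apart. MondoA protein is not given, and effects of the siRNA on other genes cannot be told apart from loss of MondoA.

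MondoA is a transcription factor that binds DNA together with MLX. It senses phosphorylated glucose and is best known for switching on TXNIP and ARRDC4, which restrain glucose uptake. Doxorubicin traps topoisomerase II on DNA and leaves double-strand breaks. Cells with intact p53 answer such breaks by inducing the CDK inhibitor CDKN1A, which stops the cell cycle. DNA or RNA in the wrong compartment of a damaged cell can also induce interferon beta, which switches on a set of antiviral genes through the factors of the ISGF3 complex. RPE-1 cells have been widely used to study these responses.

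Counts per library ran from 18392192 to 20050175 in siMondoA DXR cells and from 15503423 to 22854434 in siMondoA untreated cells. Of 33121 listed genes, 13676 were abundant enough to be tested over all 18 libraries. In a principal component analysis of the 6 siMondoA libraries, the first component held 77.2% of the variance and separated DXR (38.1 to 46.1) from untreated libraries (-50 to -38.3). The second component held 8.3% and followed the library number within each group. Keratin 8 (KRT8) and keratin 18 (KRT18), which RPE-1 cells express, were abundant at 719 to 774 and 512 to 574 CPM (counts scaled to equal library size) in siMondoA DXR cells, against 311 to 405 and 257 to 386 CPM in siMondoA untreated cells. MITF and OTX2, transcription factors of retinal pigment epithelium, were present in every library. MITF did not pass the test (log2 fold change -0.13, edgeR adjusted p = 0.211), and OTX2 fell, with 11.8, 13.2 and 13.2 CPM in siMondoA DXR cells against 19.4, 19.5 and 25 CPM in siMondoA untreated cells (log2 fold change -0.73, SE 0.10, edgeR adjusted p = 4.79e-06). The summed level of all 13 listed markers of retinal pigment epithelium was 1316 to 1394 CPM in siMondoA DXR cells and 629 to 845 CPM in siMondoA untreated cells, and 4 of the 6 tested rose and 1 fell. KRT8 and KRT18 carried most of that sum in both groups, so its rise is mainly theirs. Markers of the mature tissue were nearly absent, with 8 RPE65 counts in all 3 siMondoA DXR libraries against 4 in the 3 siMondoA untreated libraries, and 2 against 2 RLBP1 counts.

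Marker lists of other cell types were read in the same way. The summed level of 12 fibroblast markers was 4331 to 4569 CPM in siMondoA DXR cells and 3542 to 3997 CPM in siMondoA untreated cells, and 5 of the 10 tested members rose and 1 fell. The summed level of 12 markers of blood and endothelium was 109 to 146 CPM in siMondoA DXR cells and 103 to 125 CPM in siMondoA untreated cells. CD68, a lysosomal protein of macrophages that other cells also make, carried most of that sum, and HBB had 0 counts in all 6 libraries. The sum of 6 neural retina markers was 16.3 to 17.8 CPM in siMondoA DXR cells and 20.6 to 24.7 CPM in siMondoA untreated cells. PAX6 carried most of it, and the photoreceptor gene RCVRN had 0 counts in all 6 libraries. The part of the fibroblast markers in the results below was not tested.

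The targeted gene was low in all siMondoA libraries. MLXIP (GRCh38, chr12:122078722-122147347, plus strand) had 1.63, 2.58 and 2.86 CPM in siMondoA DXR cells, and 3.34, 4.57 and 3.63 CPM in siMondoA untreated cells. It had 63.2 to 66.6 CPM in siControl DXR cells and 63.7 to 72.9 CPM in siControl untreated cells. The siMondoA means were 3.65% of the siControl mean with DXR and 5.6% without it, and no siMondoA library came near a siControl library. The residual MLXIP itself fell with DXR in siMondoA cells (log2 fold change -0.72, SE 0.18, edgeR adjusted p = 0.00203). MLX, the partner of MondoA, had 43.5, 42.6 and 45.4 CPM in siMondoA DXR cells, against 52.1, 48.3 and 47.2 CPM in siMondoA untreated cells. These groups did not overlap, but the difference was small (log2 fold change -0.17, SE 0.06, edgeR adjusted p = 0.0256) and missed the threshold in 6 of 13 alternative analyses. Both siMondoA groups lay above the siControl groups in MLX, which had 26.4 to 26.8 CPM in siControl DXR cells and 25.7 to 27.4 CPM in siControl untreated cells. The siMondoA means of MLX were 165% of the siControl mean with DXR and 187% without it. The related gene MLXIPL had 0 counts in all 6 siMondoA libraries.

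DXR moved a large share of the transcriptome of MondoA-depleted cells. With edgeR's quasi-likelihood test and an adjusted p under 0.05, 3583 of 13676 genes rose (26.2%) and 3824 fell (28%). The rises were the larger ones. A change of 2-fold or more that also passed the test was seen for 1047 genes that rose (7.66%) and 500 that fell (3.66%), and the median log2 fold change over all tested genes was -0.02. Gene lists are described below by how many of their tested members passed in each direction and by their median log2 fold change, to be read against these shares. The lists of interferon ligands and sensors, MHC class I, contractile and high mobility group genes were added after values were seen, so their counts only describe. A lack of overlap between the libraries of the groups was common and held for 8161 genes. Most named genes were chosen by a small p or with no overlap required. Their lack of overlap is therefore a description and not separate support.

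**Figure D1:**
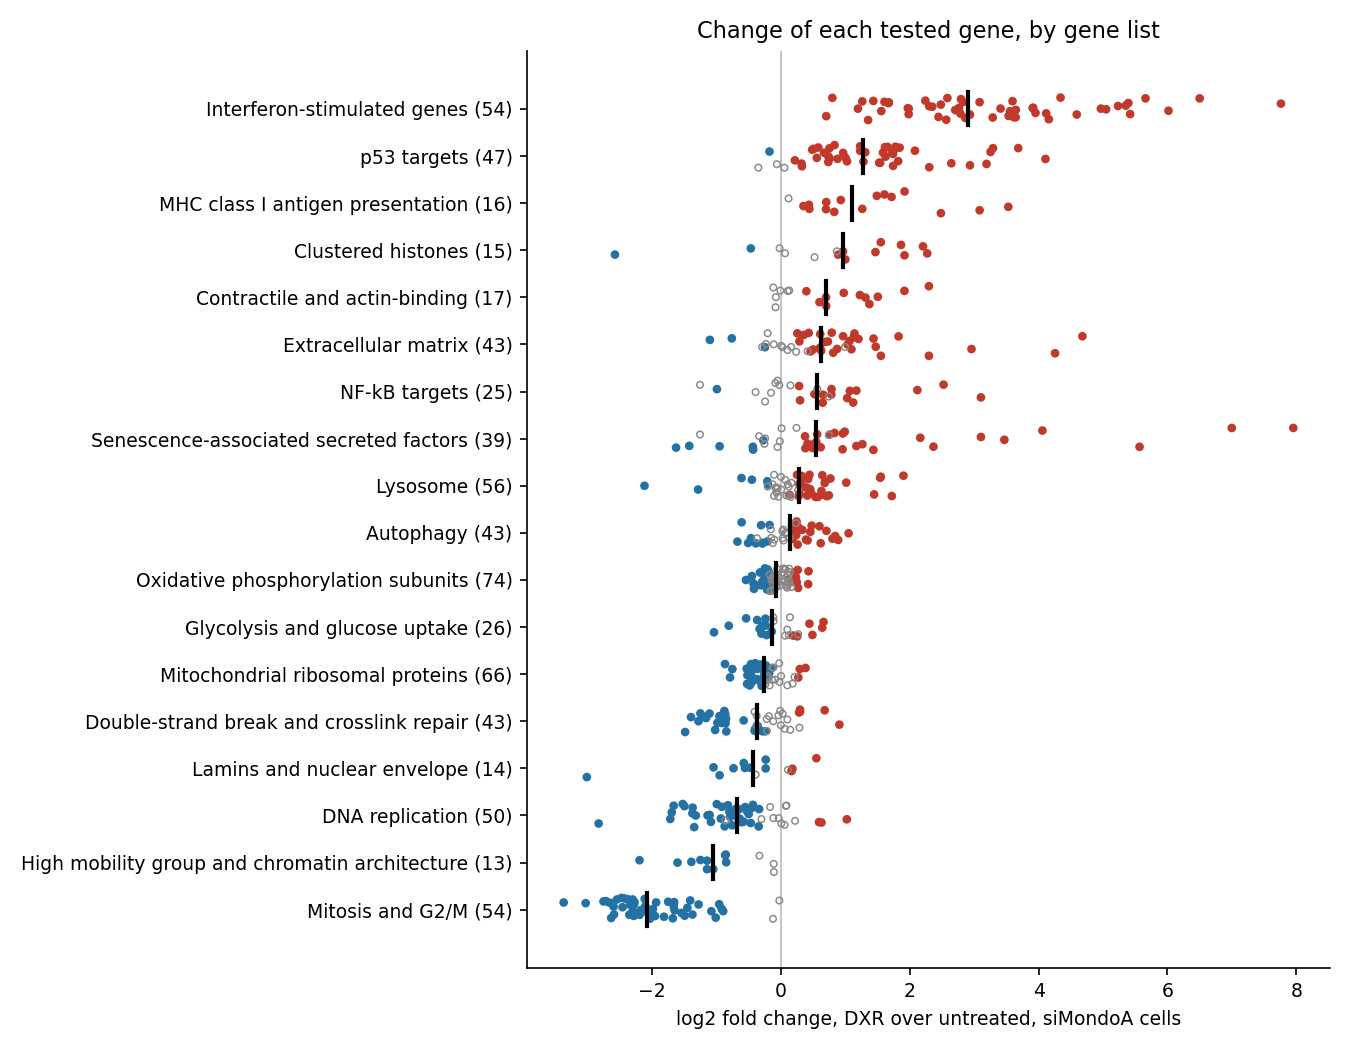
Each point is a tested gene at its log2 fold change, siMondoA DXR over siMondoA untreated, in rows by gene list with the number tested in brackets; filled points passed the test (red higher, blue lower), open points did not, and the black bar is the list's median. All 54 interferon-stimulated genes lie to the right of 0 with a median of 2.90, and the mitotic genes lie to the left with a median of -2.08.

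Genes activated by p53 rose almost as a block. Of 47 tested p53 targets, 43 rose and 1 fell, with a median log2 fold change of 1.28. CDKN1A, the CDK inhibitor p21, had 3011, 3250 and 3138 CPM in siMondoA DXR cells, against 543, 462 and 496 CPM in siMondoA untreated cells. The groups were far apart (log2 fold change 2.65, SE 0.08, edgeR adjusted p = 1.45e-14). Per gene length, CDKN1A ranked 26th among the listed genes by RPKM in siMondoA DXR cells and 247th in siMondoA untreated cells. MDM2, the ubiquitin ligase that limits p53, had 368, 388 and 359 CPM in siMondoA DXR cells, against 114, 107 and 113 CPM in siMondoA untreated cells (log2 fold change 1.74, SE 0.07, edgeR adjusted p = 1.22e-12). BTG2, an antiproliferative factor, rose most in proportion among the p53 targets with the smallest p, to 43.8, 51.5 and 45.9 CPM in siMondoA DXR cells, against 4.06, 3.06 and 3.99 CPM in siMondoA untreated cells. All 3 libraries of each group stayed clear of the other group for these genes.

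Other p53 targets had different roles. CYFIP2, a regulator of actin assembly, had a log2 fold change of 3.29 (SE 0.14, edgeR adjusted p = 1.22e-12). DRAM1, a lysosomal regulator of autophagy, had 2.08 (SE 0.08, edgeR adjusted p = 1.78e-13). RRM2B, the ribonucleotide reductase subunit that serves DNA repair outside S phase, had 1.53 (SE 0.06, edgeR adjusted p = 7.10e-13). The single p53 target that fell was APAF1, which assembles the apoptosome, with 13.5, 13.4 and 13.7 CPM in siMondoA DXR cells and 15.3, 15.1 and 15.4 CPM in siMondoA untreated cells (log2 fold change -0.18, SE 0.07, edgeR adjusted p = 0.0334). That small difference missed the threshold in 9 of 13 alternative analyses. GDF15, a secreted p53 target, was too low to test, with 5 counts over the siMondoA DXR libraries and 3 over the siMondoA untreated libraries.

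CDK inhibitors did not move together. Of 7 tested, 3 rose and 4 fell. Besides CDKN1A, the neighbouring genes CDKN2B (p15) and CDKN2A (p16 and ARF) rose. CDKN2A had 181, 152 and 184 CPM in siMondoA DXR cells and 126, 130 and 128 CPM in siMondoA untreated cells (log2 fold change 0.43, SE 0.11, edgeR adjusted p = 0.00346). CDKN2B had 147, 131 and 113 CPM in siMondoA DXR cells and 70.9, 68.1 and 49.2 CPM in siMondoA untreated cells (log2 fold change 1.05). CDKN1B (p27) fell, at 162 to 172 CPM in siMondoA DXR cells and 230 to 231 CPM in siMondoA untreated cells. CDKN2C (p18), which E2F factors induce in cycling cells, fell more steeply (log2 fold change -2.12, SE 0.15, edgeR adjusted p = 1.50e-09). CDKN3, a phosphatase named with this family that peaks in mitosis, fell too (-2.73), and the fall of CDKN2D (p19) was small (-0.41) and missed the threshold in 4 of 13 alternative analyses.

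**Figure D2:**
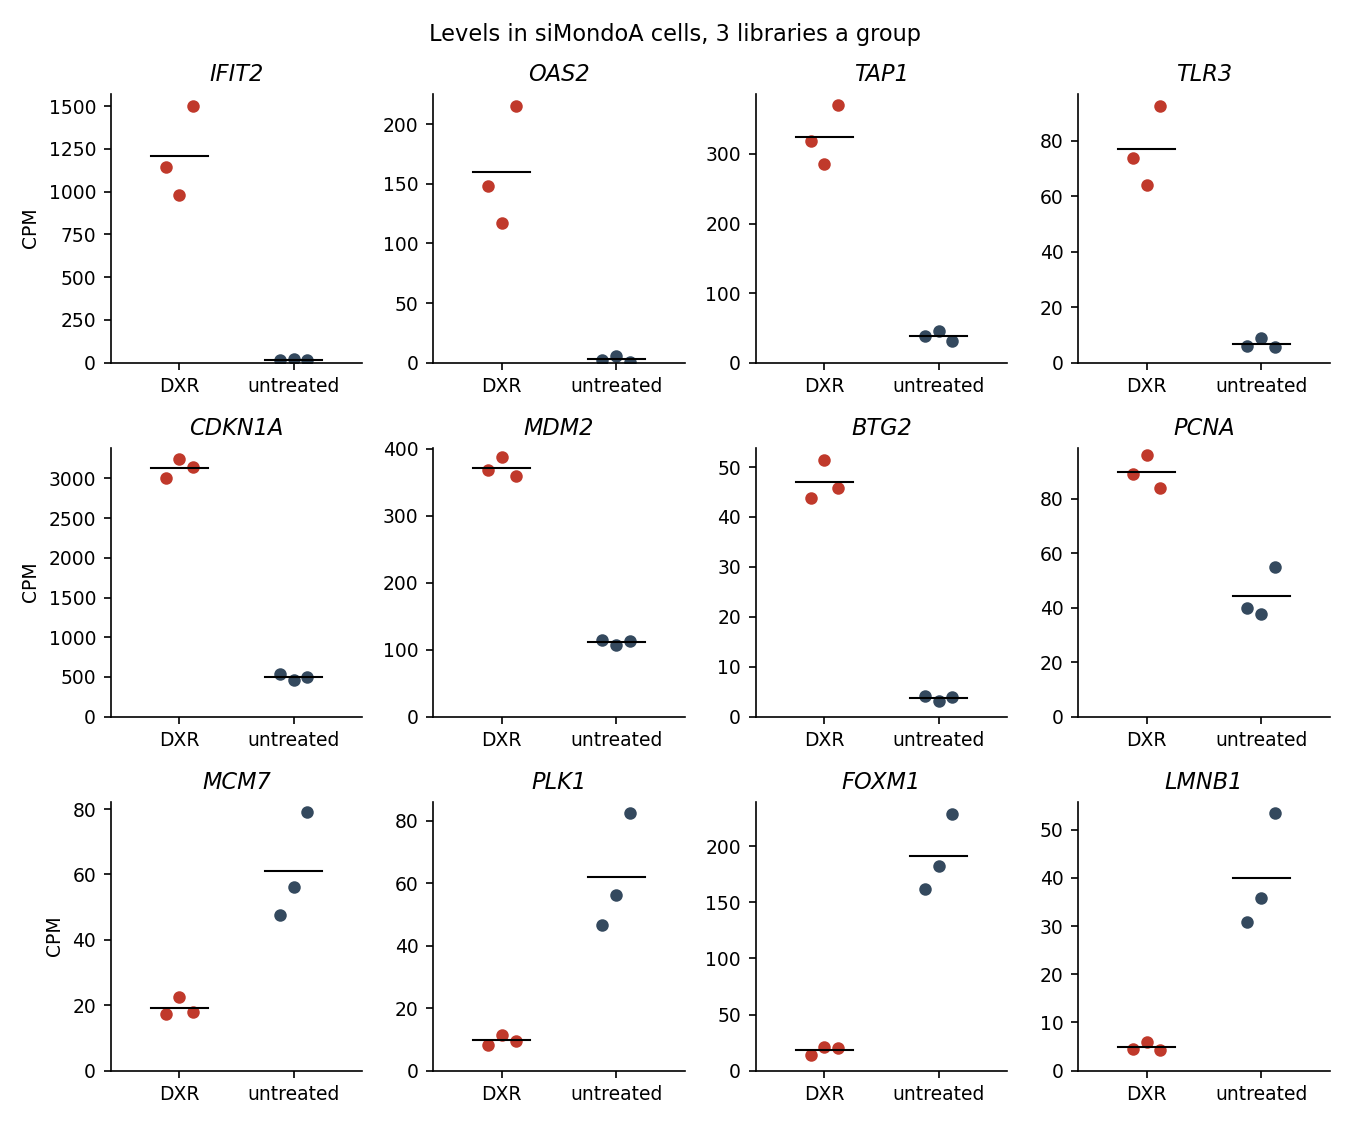
CPM of 12 genes in each library of siMondoA DXR cells (red, left) and siMondoA untreated cells (dark, right), each panel with its own axis from 0 and a black line at the group mean. The red points of IFIT2 lie between 979 and 1499 and the dark ones between 15.9 and 22.3, and in no panel do the groups overlap.

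Genes of mitosis fell. Of 54 tested genes of mitosis and G2/M, 52 fell and none rose, with a median log2 fold change of -2.08, and leaving out any 1 of the 6 libraries kept the count at 52 with medians between -2.37 and -1.81. FOXM1, the transcription factor that drives many of them, had 14.1, 21.2 and 19.9 CPM in siMondoA DXR cells, against 162, 182 and 229 CPM in siMondoA untreated cells (log2 fold change -3.37, SE 0.15, edgeR adjusted p = 2.82e-12). PLK1, a mitotic kinase, had 8.2, 11.3 and 9.64 CPM in siMondoA DXR cells, against 46.8, 56.4 and 82.5 CPM in siMondoA untreated cells (log2 fold change -2.66, SE 0.18, edgeR adjusted p = 7.66e-10). Neither gene had a DXR library near its untreated libraries. KIF20A, a kinesin of the central spindle, and PTTG1, the securin, also fell (log2 fold changes -3.03 and -2.38), although reads of PTTG1 may be shared with its near-identical pseudogenes. Among the 12 steepest falls that met the level and overlap conditions were further cell division genes, namely TROAP (-3.02), NUF2 (-2.75) and NEK2 (-2.71).

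The untreated libraries differed among themselves in these genes. MKI67, the proliferation antigen, had 6.51, 18.1 and 16.1 CPM in siMondoA DXR cells and 42.7, 69 and 143 CPM in siMondoA untreated cells. Untreated library 3 was the highest and untreated library 1 the lowest, and every untreated library lay above every DXR library (log2 fold change -2.63, SE 0.37, edgeR adjusted p = 6.76e-06). The mean log2 level of the mitotic list, set to 0 at the mean of the siMondoA untreated libraries, was -2.31, -1.62 and -1.92 in siMondoA DXR cells and -0.33, -0.14 and 0.47 in siMondoA untreated cells.

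The promoters of mitotic genes were searched for TTTGAA, the cell cycle homology region through which the DREAM and MuvB-FOXM1 complexes act on G2/M genes. It was searched on both strands in RefSeq promoters (GRCh38.p14, 250 bases before to 50 bases after the gene's start), and overlapping matches were counted. Of the 54 tested mitotic genes, 47 had a promoter in the table, and 32 of these held the motif (68.1%), against 1029 of all 10512 tested genes with a promoter (9.79%). It was in none of 42 promoters of DNA replication genes, in 1 of 35 promoters of p53 targets and in 3 of 44 promoters of interferon-stimulated genes. The promoters of the 3 genes with the smallest p among those that hold the motif are shown 5′ to 3′ along each gene's strand with the motif in capitals, which reads TTCAAA where it lies on the other strand. PLK1 is at chr16:23678639-23678938 (plus strand), DLGAP5, which bundles spindle microtubules, at chr14:55191536-55191835 (minus strand) and CCNB2, cyclin B2, at chr15:59104896-59105195 (plus strand).
PLK1: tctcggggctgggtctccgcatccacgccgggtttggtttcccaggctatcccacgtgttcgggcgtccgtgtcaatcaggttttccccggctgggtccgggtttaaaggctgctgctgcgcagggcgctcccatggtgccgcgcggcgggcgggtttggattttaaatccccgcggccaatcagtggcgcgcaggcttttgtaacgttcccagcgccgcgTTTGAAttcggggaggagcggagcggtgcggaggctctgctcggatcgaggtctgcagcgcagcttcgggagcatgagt
DLGAP5: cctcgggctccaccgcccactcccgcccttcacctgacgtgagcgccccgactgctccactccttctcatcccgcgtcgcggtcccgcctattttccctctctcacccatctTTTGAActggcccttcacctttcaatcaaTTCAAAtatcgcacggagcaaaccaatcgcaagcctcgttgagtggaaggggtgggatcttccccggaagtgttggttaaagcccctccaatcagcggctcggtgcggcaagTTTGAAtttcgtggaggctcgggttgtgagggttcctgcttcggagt
CCNB2: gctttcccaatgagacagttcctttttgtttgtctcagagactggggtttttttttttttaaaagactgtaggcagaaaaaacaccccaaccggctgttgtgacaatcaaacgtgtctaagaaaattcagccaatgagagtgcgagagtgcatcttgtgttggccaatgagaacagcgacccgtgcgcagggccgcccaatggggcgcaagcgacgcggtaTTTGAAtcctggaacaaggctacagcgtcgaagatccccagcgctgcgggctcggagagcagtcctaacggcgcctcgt
DLGAP5 fell by 2.61 and CCNB2 fell by 2.59 on the log2 scale (edgeR adjusted p = 2.33e-09 and 2.41e-09). In PLK1 and CCNB2 the motif begins 29 bases before the start. A match is a description of the sequence and not evidence of binding.

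DNA replication genes fell less uniformly. Of 50 tested, 37 fell and 3 rose, with a median log2 fold change of -0.67. Without untreated library 3, the highest of its group in these genes too, 31 fell with a median of -0.53. MCM7, a subunit of the replicative helicase, had 17.3, 22.4 and 17.9 CPM in siMondoA DXR cells, against 47.7, 56.3 and 79.2 CPM in siMondoA untreated cells (log2 fold change -1.66, SE 0.16, edgeR adjusted p = 4.15e-08). UHRF1, which guides DNA methylation to new DNA, fell (-1.34), as did GMNN, the licensing inhibitor geminin (-1.37), MCM6 (-0.91) and DNMT1, the maintenance methyltransferase (-0.61).

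The 3 replication genes that rose were PCNA, POLA2 and CCNE1. PCNA, the sliding clamp of replication and repair and itself a p53 target, had 89.1, 96 and 84.1 CPM in siMondoA DXR cells, against 40.1, 37.7 and 55.1 CPM in siMondoA untreated cells (log2 fold change 1.03, SE 0.14, edgeR adjusted p = 4.55e-06). POLA2, the B subunit of DNA polymerase alpha, had 27.7, 29.1 and 33.5 CPM in siMondoA DXR cells, against 18.8, 17.8 and 23.6 CPM in siMondoA untreated cells (log2 fold change 0.59, SE 0.11, edgeR adjusted p = 1.56e-04). Neither gene's groups overlapped. CCNE1, cyclin E1, was low, with 2.75 to 3.6 CPM in siMondoA DXR cells and 1.68 to 2.56 CPM in siMondoA untreated cells (log2 fold change 0.63, edgeR adjusted p = 0.00573).

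Genes of deoxynucleotide metabolism were mixed. Of 13 tested, 6 fell, 3 rose and 4 did not pass (median -0.24), and the summed level of the 14 listed was 916 to 970 CPM in siMondoA DXR cells against 790 to 860 CPM in siMondoA untreated cells. TK1, thymidine kinase, had 5.67, 7.14 and 5.62 CPM in siMondoA DXR cells, against 42.3, 41.5 and 47.7 CPM in siMondoA untreated cells (log2 fold change -2.83, SE 0.13, edgeR adjusted p = 4.60e-12). RRM2, the S-phase subunit of ribonucleotide reductase, and DUT, the dUTPase, also fell (-1.89 and -0.85). SAMHD1, which degrades deoxynucleotides and is also interferon-inducible, rose to 256, 215 and 281 CPM in siMondoA DXR cells, against 58, 67.1 and 49.4 CPM in siMondoA untreated cells (log2 fold change 2.10, SE 0.22, edgeR adjusted p = 2.32e-07). On average SAMHD1 rose by more CPM than the summed level did, so the rise of the sum does not describe the other members.

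Among 43 tested genes of double-strand break and crosslink repair, 23 fell and 5 rose (median -0.37). CHEK1, the checkpoint kinase, and H2AFX, the histone marked at breaks, fell (-0.91 and -1.16). XRCC4, the partner of DNA ligase IV in end joining, rose, with 33.6, 38.3 and 40 CPM in siMondoA DXR cells and 20.1, 18.3 and 21.4 CPM in siMondoA untreated cells (log2 fold change 0.91, SE 0.08, edgeR adjusted p = 8.05e-09). BRIP1, the BRCA1-binding helicase, rose too, with 22.6, 17.6 and 28.9 CPM in siMondoA DXR cells and 14.5, 12.7 and 16.1 CPM in siMondoA untreated cells (log2 fold change 0.68, SE 0.13, edgeR adjusted p = 2.63e-04). The groups of both genes were apart. ATM, the kinase that signals breaks, rose slightly (0.29).

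The drug's own targets fell. TOP2A, the topoisomerase II of dividing cells, had 26.7, 51.7 and 30.8 CPM in siMondoA DXR cells, against 149, 164 and 227 CPM in siMondoA untreated cells (log2 fold change -2.30, SE 0.21, edgeR adjusted p = 3.39e-08). TOP2B, the isoform that non-dividing cells also make, had 78.5, 92.9 and 79.2 CPM in siMondoA DXR cells, against 108, 114 and 113 CPM in siMondoA untreated cells (log2 fold change -0.42, SE 0.06, edgeR adjusted p = 8.42e-06). In both genes all DXR libraries lay below all untreated ones. Of 22 tested topoisomerases and genes that handle anthracyclines, 3 rose and 10 fell. NQO1, a quinone reductase, fell (-1.09) and ABCC1, an efflux pump, fell (-0.50). The 3 that rose were AKR1A1 (0.65) and CBR3 (0.39), which reduce carbonyl groups, and SLC28A3, a nucleoside transporter (1.76).

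Interferon-stimulated genes rose without exception. All 54 tested members passed the test upwards, with a median log2 fold change of 2.90, and leaving out any 1 of the 6 libraries kept all 54 with medians between 2.81 and 3.07. IFIT2, an antiviral protein that binds RNA, had 1145, 979 and 1499 CPM in siMondoA DXR cells, against 15.9, 22.3 and 17.2 CPM in siMondoA untreated cells (log2 fold change 6.02, SE 0.24, edgeR adjusted p = 7.10e-13). By RPKM it ranked 172nd among the listed genes in siMondoA DXR cells and 7046th in siMondoA untreated cells. OASL, an antiviral relative of the oligoadenylate synthetases, had 109, 86.5 and 165 CPM in siMondoA DXR cells, against 0.557, 2.35 and 0.725 CPM in siMondoA untreated cells (log2 fold change 6.50, SE 0.45, edgeR adjusted p = 6.75e-10). OAS2, one of those synthetases, had 148, 117 and 215 CPM in siMondoA DXR cells, against 2.06, 5.75 and 0.907 CPM in siMondoA untreated cells (log2 fold change 5.66, SE 0.45, edgeR adjusted p = 5.17e-09). In each of these genes DXR library 3 was the highest and DXR library 2 the lowest of the DXR libraries, and no untreated library came near them.

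The 12 largest rises of the whole comparison, among genes with a mean of at least 5 CPM with DXR and no overlap between groups, were mostly of this kind. Besides IFIT2, OASL and OAS2 they held RSAD2, viperin, with 28.1, 19.4 and 45.5 CPM in siMondoA DXR cells against 0.0557, 0.294 and 0 CPM in siMondoA untreated cells. They also held MX2, a dynamin-like antiviral GTPase (log2 fold change 5.42), GBP4, a guanylate-binding protein (7.52), LY6E, a membrane protein (5.70), and LGALS9, galectin 9 (5.41). TNFSF10, the death ligand TRAIL, had 97, 52 and 156 counts in siMondoA DXR cells and 0 counts in all siMondoA untreated libraries. Against a floor of 3 counts over the untreated group, TNFSF10 was at least 106-fold higher with DXR. SULF2, a heparan sulfate endosulfatase, had 323 counts over the DXR libraries and 2 over the untreated libraries, a ratio of 169 with an exact 95% counting interval of 46.4 to 1402. SLC15A3, a lysosomal peptide transporter, and RP3-326I13.1, whose role is not known here, completed the 12.

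Interferon-stimulated promoters were searched for the core of the interferon-stimulated response element, written as GAAANNGAAA, on both strands and in the same RefSeq promoters. Of the 54 tested genes, 44 had a promoter in the table, and 28 of these held a match (63.6%), against 307 of all 10512 tested genes with a promoter (2.92%). A match was in 2 of 47 mitotic promoters (4.26%), in 1 of 35 promoters of p53 targets (2.86%) and in none of the 42 of DNA replication genes. The promoters of the 3 genes with the smallest p among those that hold a match are shown 5′ to 3′ along the gene's strand, with the match in capitals, which reads TTTCNNTTTC where it lies on the other strand. TAP1, the peptide transporter that loads MHC class I, is at chr6:32853655-32853954 (minus strand) with a pair of overlapping matches. SAMD9, an antiviral translation inhibitor, is at chr7:93117930-93118229 (minus strand) and PARP12, a mono-ADP-ribosyltransferase, at chr7:140062902-140063201 (minus strand).
TAP1: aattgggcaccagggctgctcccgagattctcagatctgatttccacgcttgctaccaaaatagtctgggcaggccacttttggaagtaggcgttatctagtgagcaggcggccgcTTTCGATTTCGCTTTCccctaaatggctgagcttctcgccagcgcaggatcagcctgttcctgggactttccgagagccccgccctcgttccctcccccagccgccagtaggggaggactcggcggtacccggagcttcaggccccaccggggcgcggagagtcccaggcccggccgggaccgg
SAMD9: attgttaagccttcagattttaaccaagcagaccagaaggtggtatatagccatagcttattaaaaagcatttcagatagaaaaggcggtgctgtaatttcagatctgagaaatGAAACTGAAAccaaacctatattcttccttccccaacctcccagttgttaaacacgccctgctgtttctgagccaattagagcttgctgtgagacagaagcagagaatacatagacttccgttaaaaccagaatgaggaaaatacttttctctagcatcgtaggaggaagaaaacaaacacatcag
PARP12: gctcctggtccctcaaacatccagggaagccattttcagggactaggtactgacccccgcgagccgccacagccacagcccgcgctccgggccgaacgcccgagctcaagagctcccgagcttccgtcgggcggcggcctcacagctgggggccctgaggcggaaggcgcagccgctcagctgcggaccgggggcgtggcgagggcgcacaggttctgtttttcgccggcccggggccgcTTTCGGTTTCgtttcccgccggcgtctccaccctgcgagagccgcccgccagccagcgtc
TAP1 had 318, 285 and 370 CPM in siMondoA DXR cells, against 37.9, 44.9 and 31.2 CPM in siMondoA untreated cells (log2 fold change 3.09, SE 0.20, edgeR adjusted p = 2.55e-10). SAMD9 and PARP12 rose by similar amounts (3.41 and 2.80), and none of the 3 genes had overlapping groups.

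The ligand of this pathway was barely detected. IFNB1, interferon beta, had 17, 6 and 23 counts in siMondoA DXR cells and 0 in all siMondoA untreated libraries, at least 16.1-fold higher against the same floor. In siControl DXR cells it had 9, 2 and 0 counts. CXCL10, an interferon-induced chemokine, had 59, 29 and 76 counts in siMondoA DXR cells and 0, 1 and 0 in siMondoA untreated cells, a ratio of 172 with an exact 95% counting interval of 30.4 to 6824. Of 22 tested interferon ligands, receptors and nucleic acid sensors, 17 rose and 1 fell (median 0.47).

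TLR3, the endosomal receptor for double-stranded RNA, had 73.9, 64 and 92.7 CPM in siMondoA DXR cells, against 5.84, 8.77 and 5.68 CPM in siMondoA untreated cells (log2 fold change 3.48, SE 0.20, edgeR adjusted p = 7.77e-11). IRF1, an interferon regulatory factor, had 49.5, 43.4 and 57.7 CPM in siMondoA DXR cells, against 19.4, 23.8 and 25.9 CPM in siMondoA untreated cells (log2 fold change 1.12, SE 0.11, edgeR adjusted p = 7.24e-08). The DXR libraries of both genes lay above all untreated ones. TMEM173, the DNA-sensing adaptor STING, rose (1.02), and TREX1, an exonuclease that clears cytosolic DNA, rose (1.38). MB21D1, the DNA sensor cGAS, had 1, 0 and 0 counts in siMondoA DXR cells and 0, 1 and 1 in siMondoA untreated cells, too few to test.

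Antigen presentation rose with the interferon-stimulated genes. Of 16 tested genes of MHC class I presentation, 15 rose and none fell (median 1.10). This list was added after values were seen and shares at least TAP1 with the interferon-stimulated genes. HLA-E had 549, 539 and 685 CPM in siMondoA DXR cells, against 214, 214 and 203 CPM in siMondoA untreated cells (log2 fold change 1.49, SE 0.08, edgeR adjusted p = 2.05e-11). HLA-B also rose (1.61), although reads may be split between HLA genes that resemble each other. PSMB9, a subunit of the immunoproteasome, had 29.6, 23.8 and 39 CPM in siMondoA DXR cells, against 5.06, 6.21 and 5.08 CPM in siMondoA untreated cells (log2 fold change 2.48, SE 0.23, edgeR adjusted p = 2.81e-08), and PSMB8, another such subunit, rose by less (1.26). All 3 DXR libraries were above the untreated ones in these genes.

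**Figure D3:**
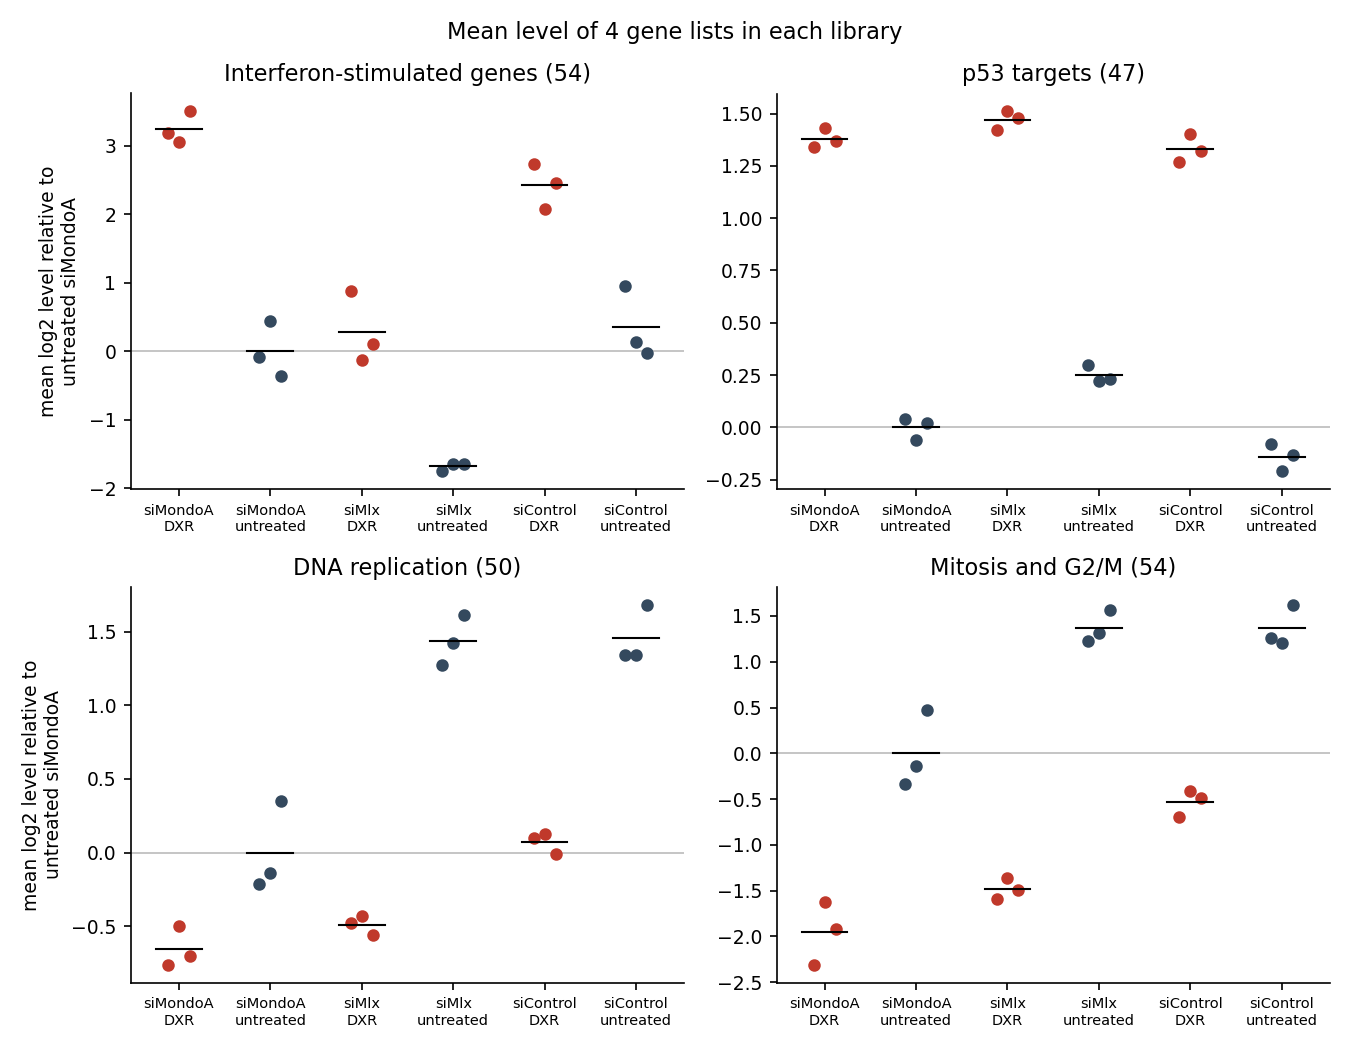
Mean log2 level of 4 gene lists in each of the 18 libraries (red DXR, dark untreated, black line at the group mean), with 0 at the mean of the siMondoA untreated libraries. The interferon-stimulated genes reach 3.06 to 3.50 in siMondoA DXR cells, and untreated siControl library 1 lies at 0.95, apart from the other untreated libraries of its group.

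Genes of apoptosis moved in both directions. Of 15 tested BCL2 family genes, 7 rose and 4 fell (median 0.18). PMAIP1 (NOXA), a BH3-only killer protein, had 77.8, 51.1 and 91.6 CPM in siMondoA DXR cells, against 13.9, 14.9 and 17 CPM in siMondoA untreated cells (log2 fold change 2.27, SE 0.16, edgeR adjusted p = 1.22e-09). BBC3 (PUMA), another, had 19.7, 21.4 and 23 CPM in siMondoA DXR cells, against 6.34, 5.54 and 5.98 CPM in siMondoA untreated cells (log2 fold change 1.85, SE 0.14, edgeR adjusted p = 2.59e-09), and BAX, a pore former, rose by 0.58. BMF, a BH3-only protein that responds to loss of adhesion, went the other way, with 29.3, 35.8 and 28.3 CPM in siMondoA DXR cells and 126, 121 and 112 CPM in siMondoA untreated cells (log2 fold change -1.94, SE 0.09, edgeR adjusted p = 4.60e-12). Of 14 tested death receptors and ligands, 7 rose and 3 fell. FAS, a death receptor and p53 target, had 155, 166 and 167 CPM in siMondoA DXR cells, against 57, 51.7 and 50.5 CPM in siMondoA untreated cells (log2 fold change 1.62, SE 0.07, edgeR adjusted p = 4.17e-12). TNFRSF10B, a receptor for TRAIL, rose by 1.03. No library of one group entered the range of the other in these genes.

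Secreted factors named with senescence rose more often than they fell. Of 51 listed, 39 were abundant enough to test, and of these 24 rose and 6 fell (median 0.55). IL6, the inflammatory cytokine, had 11.7, 10.8 and 13.3 CPM in siMondoA DXR cells, against 4.51, 6.59 and 4.59 CPM in siMondoA untreated cells (log2 fold change 1.17, SE 0.18, edgeR adjusted p = 2.39e-05). FGF2, a growth factor, had 142, 128 and 187 CPM in siMondoA DXR cells, against 33.2, 36.9 and 31.7 CPM in siMondoA untreated cells (log2 fold change 2.17, SE 0.10, edgeR adjusted p = 5.50e-12). The groups of both were apart. IGFBP7 and IGFBP3, which bind insulin-like growth factors, PLAT, a plasminogen activator, and CCL2, a chemokine, rose (1.44, 0.99, 0.84 and 3.11). VEGFA, the vascular growth factor, and STC1, a secreted glycoprotein, fell (-1.42 and -0.43). The chemokine CXCL8, listed as IL8, had 2.19, 0.709 and 0.826 CPM in siMondoA DXR cells and 1.06, 5.83 and 1.39 CPM in siMondoA untreated cells. Untreated library 2 alone was high, the groups overlapped, and CXCL8 did not pass (log2 fold change -1.25, SE 0.62, edgeR adjusted p = 0.0983). It passed as lower with no low-count filter (edgeR adjusted p = 5.01e-07) and without untreated library 1, untreated library 3 or DXR library 1, and its log2 fold change was 0.01 without untreated library 2.

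Of 25 tested NF-kB targets, 14 rose and 1 fell (median 0.57). TNFAIP3, the feedback inhibitor A20, had 10.6, 11.6 and 13.1 CPM in siMondoA DXR cells, against 1.95, 2.98 and 3.14 CPM in siMondoA untreated cells (log2 fold change 2.12, SE 0.14, edgeR adjusted p = 5.49e-10), a clear gap between the groups. BIRC3, an inhibitor of apoptosis, rose by 2.53, and the member that fell was BCL3, a nuclear IkB protein (-0.99).

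Chromatin and nuclear envelope genes changed as well. LMNB1, the lamin that is lost in senescent cells, had 4.44, 5.98 and 4.35 CPM in siMondoA DXR cells, against 30.9, 35.8 and 53.4 CPM in siMondoA untreated cells (log2 fold change -3.01, SE 0.20, edgeR adjusted p = 5.49e-10). Of 14 tested lamin and envelope genes, 9 fell and 3 rose (median -0.43). LBR, the lamin B receptor, and LMNA, lamin A, fell (-1.04 and -0.56), and SYNE1, a nesprin, rose (0.55). Of 13 tested high mobility group and related chromatin genes, 10 fell and none rose (median -1.05). HMGA1 had 1266, 1318 and 1349 CPM in siMondoA DXR cells, against 3036, 2733 and 3570 CPM in siMondoA untreated cells (log2 fold change -1.25, SE 0.09, edgeR adjusted p = 1.76e-09), and ranked 105th by RPKM with DXR and 20th without it. HMGB1 and HMGN2 fell by similar amounts (-1.05 and -1.14). All DXR libraries were below all untreated ones in these genes.

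Clustered histone genes, whose transcripts carry a poly(A) tail in part of the non-dividing cells, rose in this poly(A)-selected RNA. Of 31 listed, 15 were abundant enough to test, and 9 of these rose and 2 fell (median 0.97). HIST1H2AC had 19.5, 18.5 and 22.2 CPM in siMondoA DXR cells, against 4.9, 3.82 and 4.41 CPM in siMondoA untreated cells (log2 fold change 2.21, SE 0.11, edgeR adjusted p = 8.29e-12), without overlap. HIST1H1C, a linker histone, rose by 1.47, HIST1H2BK by 0.97 and HIST2H2BE by 0.89. Histone genes resemble each other closely, so the member a read was counted for is uncertain.

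Matrix and contractile genes rose. Of 43 tested extracellular matrix genes, 29 rose and 3 fell (median 0.63), and of 17 tested contractile genes, 11 rose and none fell (median 0.70). COL4A4, a chain of basement membrane collagen, had 102, 75 and 72.8 CPM in siMondoA DXR cells, against 5.57, 4.83 and 2.42 CPM in siMondoA untreated cells (log2 fold change 4.26, SE 0.27, edgeR adjusted p = 2.42e-10). Its neighbour COL4A3 had 6.06, 6.59 and 7.66 CPM in siMondoA DXR cells, against 0.39, 0.168 and 0.242 CPM in siMondoA untreated cells (4.68), and COL4A5, a further chain of the same network, rose by 1.21. The groups of these chains were far apart. SPARC, a collagen-binding matrix protein, and POSTN, periostin, rose (1.04 and 2.96), and COL12A1, a fibril-associated collagen, fell (-1.10). TAGLN, an actin-binding protein, had 1754, 1294 and 1373 CPM in siMondoA DXR cells, against 452, 422 and 294 CPM in siMondoA untreated cells (log2 fold change 1.92, SE 0.18, edgeR adjusted p = 3.73e-08). ACTA2, smooth muscle actin, varied more, with 712, 429 and 397 CPM in siMondoA DXR cells and 146, 125 and 40.7 CPM in siMondoA untreated cells (log2 fold change 2.30, SE 0.40, edgeR adjusted p = 7.17e-05). Library 1 was the highest of each group in ACTA2. FN1, fibronectin, chosen after its values were seen, was the 2nd most abundant gene by RPKM with DXR (3834 ± 287, SD, 3 libraries) and the 8th without it (2262 ± 132).

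Lysosomal genes rose by small amounts. Of 56 tested, 31 rose and 6 fell (median 0.28). FUCA1, a fucosidase and p53 target, had 88, 89.2 and 85.7 CPM in siMondoA DXR cells, against 32.4, 29.8 and 28.1 CPM in siMondoA untreated cells (log2 fold change 1.54, SE 0.08, edgeR adjusted p = 8.32e-12). GAA, acid alpha-glucosidase, and LAMP1, a lysosomal membrane protein, rose (1.45 and 0.57). GUSB, a glucuronidase, had 15.8, 17.2 and 19 CPM in siMondoA DXR cells and 39.5, 43.6 and 43.5 CPM in siMondoA untreated cells (-1.28), and CTSL, cathepsin L, fell by 0.61 on the log2 scale. None of these genes had overlapping groups.

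Autophagy genes were mixed, with 20 of 43 higher and 10 lower (median 0.14). RUBCN, which encodes Rubicon, an inhibitor of autophagosome fusion with lysosomes, is listed as KIAA0226 and had 59.8, 57.1 and 78.9 CPM in siMondoA DXR cells, against 34.2, 36.2 and 38.6 CPM in siMondoA untreated cells (log2 fold change 0.84, SE 0.09, edgeR adjusted p = 3.47e-07). TFEB, a master regulator of lysosomal genes, had 7.92, 8.26 and 8.54 CPM in siMondoA DXR cells, against 4.45, 5.46 and 5.08 CPM in siMondoA untreated cells (log2 fold change 0.72, SE 0.11, edgeR adjusted p = 2.38e-05). The DXR libraries were the higher ones throughout. OPTN, a receptor that brings cargo to autophagosomes, GABARAPL1, a membrane tag of autophagosomes, and BECN1, a subunit of the autophagy lipid kinase, rose (1.05, 0.89 and 0.71), and RB1CC1, a subunit of the kinase complex that starts autophagy, fell (-0.61).

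Mitochondrial lists leaned down to different degrees. Of 66 tested mitochondrial ribosomal protein genes, 49 fell and 3 rose, but the median was only -0.26. MRPL15, one of them, had 53.3, 51.5 and 48.4 CPM in siMondoA DXR cells and 86.3, 85.1 and 86.6 CPM in siMondoA untreated cells (log2 fold change -0.75). Of 74 tested oxidative phosphorylation subunits, 25 fell, 11 rose and 38 did not pass. Their median of -0.07 was near that of all tested genes (-0.02), of which 28% fell, so this list showed little lean. Of 32 tested genes of mitochondrial dynamics and mitophagy, 16 fell and 7 rose. BCL2L13, a mitophagy receptor, rose, with 233, 216 and 230 CPM in siMondoA DXR cells and 126, 124 and 121 CPM in siMondoA untreated cells (log2 fold change 0.87, SE 0.05, edgeR adjusted p = 7.77e-11). PRDX3, the mitochondrial peroxiredoxin, rose a little, with 75, 69.5 and 71.4 CPM in siMondoA DXR cells and 63.9, 64.6 and 58.8 CPM in siMondoA untreated cells (log2 fold change 0.20, SE 0.05, edgeR adjusted p = 0.00332). The groups of all 3 genes were apart. In the cytosol, 19 of 35 tested ribosome biogenesis genes fell and 2 rose, with nucleophosmin (NPM1) at -0.55, and the 72 tested ribosomal protein genes split into 8 that rose and 9 that fell, each count ranging from 3 to 13 over the alternative analyses.

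Of 11 tested glucose-responsive genes, 7 rose and 2 fell (median 0.34), and TXNIP and ARRDC4, the best-known targets of MondoA, were low. The summed level of all 16 listed was 331 to 343 CPM in siMondoA DXR cells and 331 to 346 CPM in siMondoA untreated cells, against 400 to 411 CPM in siControl DXR cells and 330 to 340 CPM in siControl untreated cells. TXNIP carried most of the gap between the DXR sums. TXNIP, the thioredoxin-interacting protein, had 4.15, 3.85 and 4.85 CPM in siMondoA DXR cells, against 1.39, 1.26 and 0.907 CPM in siMondoA untreated cells (log2 fold change 1.83, SE 0.38, edgeR adjusted p = 4.93e-04). In siControl cells TXNIP had 52.5, 66.7 and 69.8 CPM with DXR and 10.9, 10.9 and 17.6 CPM untreated, so every siMondoA library lay below every siControl library. ARRDC4 had 11, 3 and 6 counts in siMondoA DXR cells and 1, 0 and 0 in siMondoA untreated cells, a ratio of 20.9 with an exact 95% counting interval of 3.35 to 868. The 2 that fell were the arrestin-domain genes ARRDC3, with 78.5, 80 and 64.1 CPM in siMondoA DXR cells and 126, 131 and 120 CPM in siMondoA untreated cells (-0.76), and ARRDC2 (-0.79). KLF11, a transcription factor, and HK2, hexokinase 2, rose (0.94 and 0.64). By its counts the list responded alike in siControl cells, where 7 rose and 2 fell (median 0.31). The difference of the responses passed for 1 gene in each direction.

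Of 26 tested glycolytic genes, 13 fell and 6 rose (median -0.13). SLC2A3, the glucose transporter GLUT3, had 107, 102 and 104 CPM in siMondoA DXR cells, against 225, 217 and 199 CPM in siMondoA untreated cells (log2 fold change -1.04, SE 0.06, edgeR adjusted p = 1.94e-10). ENO1, enolase, and PFKP, a phosphofructokinase, fell (-0.81 and -0.54). PGAM1, phosphoglycerate mutase, rose, with 876, 846 and 881 CPM in siMondoA DXR cells and 560, 550 and 534 CPM in siMondoA untreated cells (log2 fold change 0.66, SE 0.05, edgeR adjusted p = 1.11e-09). Within the MAX and MLX network, 5 of 11 tested members rose and 5 fell. MAX, the common partner, and MYC rose (0.65 and 0.49), and MNT, a repressor that pairs with MAX or MLX, fell (-0.38).

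The remaining lists are given by their counts. Of 36 tested ATF4 targets, 12 rose and 10 fell. Of 24 genes of endoplasmic reticulum stress, 11 rose and 2 fell, and of 28 genes of sterol and fatty acid synthesis, 7 rose and 3 fell. Antioxidant genes gave 11 rises and 13 falls among 37, hypoxia-inducible genes 10 and 8 among 25, and TGF-beta targets 6 and 5 among 20. Immediate early genes gave 5 rises and 8 falls among 21, and genes of cilia 4 and 9 among 18.

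Genes outside all lists also changed, and the following were chosen after their values were seen, among genes of at least 50 CPM. The 3 largest rises past the test without overlap were HELZ2 (log2 fold change 3.29), DDX60L (3.01) and TRIM14 (2.98). In siControl cells these rose by less (2.02, 1.98 and 1.46), and the difference passed for TRIM14 alone (1.52, edgeR adjusted p = 0.00239). APLP1, a relative of the amyloid precursor protein, had 150, 154 and 168 CPM in siMondoA DXR cells, against 28.3, 29.5 and 28.1 CPM in siMondoA untreated cells (log2 fold change 2.45, SE 0.07, edgeR adjusted p = 5.37e-15). RGS5, a regulator of G protein signalling, had 69.6, 82.2 and 76.8 CPM in siMondoA DXR cells, against 11.7, 9.02 and 10.1 CPM in siMondoA untreated cells (2.90). Both were far above their untreated levels in all 3 libraries. In siControl cells APLP1 and RGS5 rose by similar amounts (2.56 and 3.01). IL6R, the interleukin 6 receptor, was among the 12 steepest falls, with 8.31, 11.4 and 7.49 CPM in siMondoA DXR cells and 75.6, 62.7 and 87.4 CPM in siMondoA untreated cells (log2 fold change -3.04, SE 0.19, edgeR adjusted p = 1.64e-10). Untreated siControl cells had less IL6R, at 12.4, 12.4 and 20.8 CPM. It fell there too (log2 fold change -2.22), and the difference did not pass (-0.82, edgeR adjusted p = 0.0926). MME, the peptidase neprilysin, and SCARA3, a scavenger receptor, fell (-1.82 and -1.89).

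The DXR response of siMondoA cells was then set beside that of siControl cells, which shares no library with it. In siControl cells 3841 genes rose (28.1%) and 3915 fell (28.6%). Of the genes called in siMondoA cells, 5521 were called in the same direction in siControl cells, which is 74.5% of the siMondoA calls and 71.2% of the siControl calls, and 147 were called in opposite directions. Over 10101 genes of at least 5 CPM, the correlation of the log2 fold changes across genes was 0.87, with a slope of 0.89. Genes are not independent replicates. The difference of the responses, tested as an interaction in the same fit, passed for 798 genes with a higher log2 fold change in siMondoA cells (5.84%) and for 586 with a lower one (4.28%). The direction split depended on the scaling, and with upper-quartile scaling it was 655 higher and 788 lower. Without siMondoA untreated library 1, 918 genes passed in all and 377 on the lower side, and without siControl DXR library 2, 316 passed on the lower side.

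**Figure D4:**
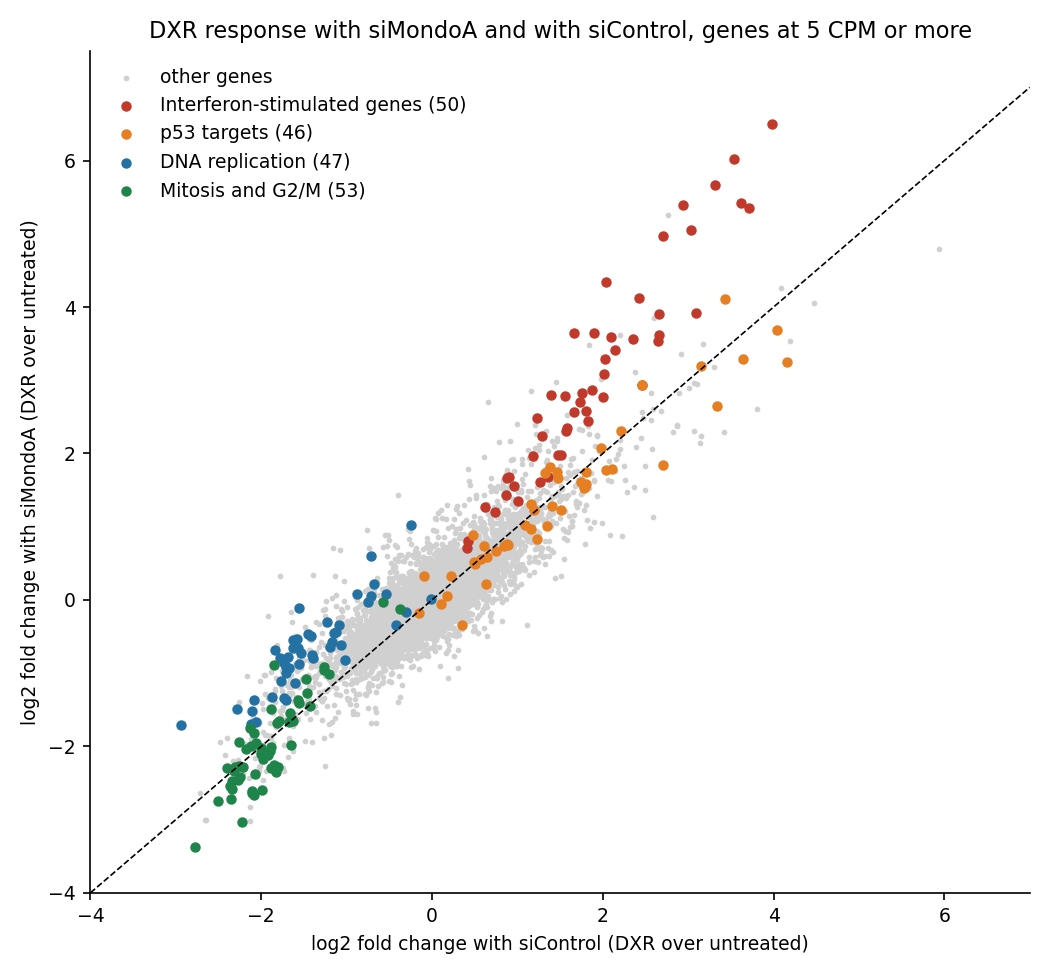
Each point is 1 of 10101 genes of at least 5 CPM, at its DXR log2 fold change with siControl (x axis) and with siMondoA (y axis), with 4 gene lists in colour and a dashed line where both are equal. Red interferon-stimulated genes lie mostly above the line, as do blue DNA replication genes, and the correlation across genes is 0.87.

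The interferon-stimulated genes differed between these responses in 1 direction only. Of 54 tested, 20 had a higher log2 fold change in siMondoA cells and none a lower one, and the list's median was 2.90 in siMondoA cells and 1.85 in siControl cells, where 53 rose. IFIT2 had a log2 fold change of 6.02 in siMondoA cells and of 3.53 in siControl cells, where it had 345, 208 and 261 CPM with DXR and 31.5, 21.6 and 17 CPM untreated (difference 2.49, SE 0.29, edgeR adjusted p = 2.74e-05). Its untreated levels overlapped between the siRNAs, and its DXR levels did not. BATF2, a transcription factor induced by interferon, had 32.8, 27.9 and 45.6 CPM in siMondoA DXR cells and 0.612 to 1.09 CPM in siMondoA untreated cells, against 5.12 to 8.92 CPM in siControl DXR cells and 0.83 to 1.34 CPM in siControl untreated cells (difference 2.49, SE 0.41, edgeR adjusted p = 6.47e-04). The differences of TLR3 (1.64), PARP12 (1.40) and IRF1 (1.09) passed as well. IRF1 was level in siControl cells, with 28.1 to 30.1 CPM with DXR and 25.8 to 30.4 CPM untreated.

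This count depended on single libraries and on the low-count filter. The mean log2 level of the list, relative to siMondoA untreated cells, was 3.19, 3.06 and 3.50 in siMondoA DXR cells and -0.08, 0.44 and -0.36 in siMondoA untreated cells, against 2.73, 2.08 and 2.46 in siControl DXR cells and 0.95, 0.14 and -0.03 in siControl untreated cells. Untreated siControl library 1 was the highest untreated library, and without it 6 genes of the list passed, with a median difference of 0.59 in place of 0.98. Without siMondoA untreated library 1 or siMondoA DXR library 3, 10 passed. Without siMondoA untreated library 3 or siControl DXR library 2, 11 passed, and without siControl DXR library 3, 13 passed. The count was 26 without siControl untreated library 3, the highest on leaving out 1 library, 14 with DESeq2, 28 with the replicate block and 52 with no low-count filter. No member had a lower log2 fold change past the test in any of these. IFIT2, BATF2, TLR3, PARP12 and IRF1 passed in every alternative analysis. OASL (difference 2.52) missed the threshold in 8 of 19 and OAS2 (2.35) in 5, and MX1, an antiviral GTPase (2.46), missed it in 1. In all 3 genes the largest adjusted p came without untreated siControl library 1 (edgeR, 0.187, 0.151 and 0.0756). Of 16 tested MHC class I genes, 6 had a higher log2 fold change in siMondoA cells and none a lower one, including TAP1 (1.08) and PSMB8 (0.64), with 3 to 8 over the alternative analyses.

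DNA replication genes fell less in siMondoA cells than in siControl cells. Their median was -0.67 in siMondoA cells and -1.55 in siControl cells, where 47 of 50 fell. The difference passed for 23 genes, all with the higher log2 fold change in siMondoA cells, and for 19 to 38 over the alternative analyses. Without siMondoA untreated library 3, 36 passed. The mean log2 level of the list was -0.76, -0.50 and -0.70 in siMondoA DXR cells and -0.21, -0.14 and 0.35 in siMondoA untreated cells, against 0.10, 0.13 and -0.01 in siControl DXR cells and 1.34, 1.34 and 1.68 in siControl untreated cells. The siMondoA cells thus had the lower level both with and without DXR, and the gap was wider without it.

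PCNA rose in siMondoA cells and did not pass in siControl cells, where it had 72.9, 87.3 and 73.1 CPM with DXR and 88.9, 80.7 and 107 CPM untreated (log2 fold change -0.25, edgeR adjusted p = 0.119). The difference was 1.28 (SE 0.19, edgeR adjusted p = 3.28e-04). POLA2 fell in siControl cells, with 28.4, 30.4 and 29.1 CPM with DXR and 44.6, 45.1 and 54 CPM untreated (difference 1.31, SE 0.15, edgeR adjusted p = 2.32e-05). In both genes the DXR levels of the siRNAs were close and the untreated levels were not, with siMondoA the lower. BRIP1 showed the same arrangement, with 20.5 to 23.6 CPM in siControl DXR cells and 43 to 47.9 CPM in siControl untreated cells (difference 1.76, SE 0.18, edgeR adjusted p = 8.71e-06). Of the 43 repair genes, 12 had a higher log2 fold change in siMondoA cells and none a lower one (median -0.37 in siMondoA cells and -0.98 in siControl cells), with 9 to 20 higher over the alternative analyses.

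Mitotic genes were lower in siMondoA cells than in siControl cells in both conditions. Their median log2 fold change was -2.08 in siMondoA cells and -1.99 in siControl cells, and the difference passed for 1 gene in each direction. Over the alternative analyses 1 to 6 passed upwards and 0 to 7 downwards, and the sign of the median difference varied (-0.25 to 0.29). The counts were 6 and 7 with no low-count filter, and 5 and 1 without siMondoA untreated library 3. Their mean log2 level was -2.31 to -1.62 in siMondoA DXR cells and -0.33 to 0.47 in siMondoA untreated cells, against -0.70 to -0.41 in siControl DXR cells and 1.21 to 1.62 in siControl untreated cells. The p53 targets had medians of 1.28 in siMondoA cells and 1.35 in siControl cells, with 2 differences passing upwards and 5 downwards, and 1 to 7 and 2 to 7 over the alternative analyses. CDKN1A was among the lower ones, with 2079, 2534 and 2322 CPM in siControl DXR cells and 223, 220 and 241 CPM in siControl untreated cells (difference -0.70, SE 0.11, edgeR adjusted p = 3.79e-04). Both CDKN1A levels were higher in siMondoA cells, and the untreated level by the larger ratio.

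**Figure D5:**
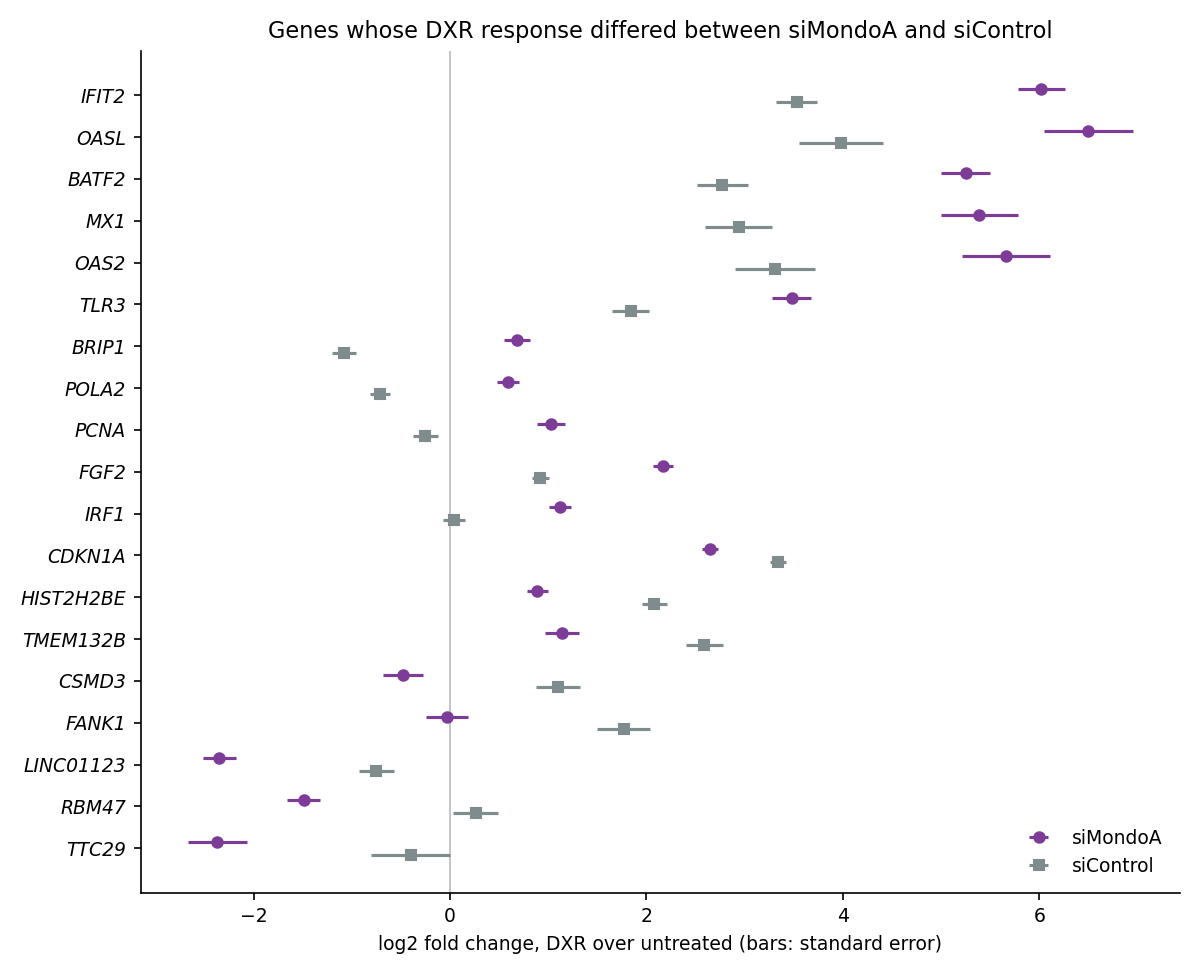
DXR log2 fold change of 19 genes in siMondoA cells (purple circles) and in siControl cells (grey squares), with bars of 1 standard error. IFIT2 lies at 6.02 with siMondoA and 3.53 with siControl, and TTC29 at -2.37 and -0.40.

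The 6 largest differences on the lower side, by the rule for named genes, were smaller genes by level. TTC29, an axonemal protein, had 0.898, 0.962 and 1.05 CPM in siMondoA DXR cells and 4.23, 3.86 and 7.13 CPM in siMondoA untreated cells, and in siControl cells its log2 fold change was -0.40 (difference -1.97, SE 0.52, edgeR adjusted p = 0.0202). The TTC29 call was lost without siControl untreated library 1, siControl DXR library 2 or siControl DXR library 3 (edgeR adjusted p up to 0.0785). LINC01123, a long noncoding RNA, had 2.19 to 2.48 CPM in siMondoA DXR cells and 10.2 to 13 CPM in siMondoA untreated cells, against 1.54 to 2.69 CPM in siControl DXR cells and 3.04 to 4.12 CPM in siControl untreated cells (difference -1.59, edgeR adjusted p = 5.05e-04). RBM47, an RNA-binding protein, fell in siMondoA cells (-1.49) and had 0.26 in siControl cells. FANK1, a testis-enriched nuclear protein, stayed at 6.33 to 8.87 CPM in siMondoA DXR cells and 6.17 to 9.18 CPM in siMondoA untreated cells, and had a log2 fold change of 1.77 in siControl cells. CSMD3 and TMEM132B, large membrane proteins, had differences of -1.58 and -1.45. The untreated siMondoA level was above the untreated siControl level in all 6 genes.

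RN7SL2, an RNA of the signal recognition particle, had 1.24, 1.82 and 1.76 CPM in siMondoA DXR cells and 2.95, 2.01 and 1.57 CPM in siMondoA untreated cells, against 1.22, 1.38 and 1.44 CPM in siControl DXR cells and 7.76, 14.7 and 5.55 CPM in siControl untreated cells. Its groups overlapped in siMondoA cells, where it did not pass, and the difference of 2.33 (edgeR adjusted p = 0.0393) missed the threshold in 8 of 19 alternative analyses. RN7SL2 is not polyadenylated and is nearly identical to a related gene, and of the 8 abundant noncoding RNAs tested 4 had a higher log2 fold change in siMondoA cells, with 0 to 5 over the alternatives.

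Among apoptosis genes, the difference was 1.05 for PMAIP1 (edgeR adjusted p = 0.00584), -0.86 for BBC3 (0.0167) and -0.54 for BMF (0.0106), so the siMondoA response was the larger rise for PMAIP1, the smaller rise for BBC3 and the larger fall for BMF. FGF2 rose more in siMondoA cells (difference 1.25, SE 0.14, edgeR adjusted p = 1.51e-05), with 268 to 300 CPM in siControl DXR cells and 143 to 154 CPM in siControl untreated cells, both above the siMondoA levels. HIST2H2BE rose less (difference -1.19, edgeR adjusted p = 2.23e-04), as did IGFBP3 (-0.63, edgeR adjusted p = 4.90e-04). PRDX3 rose in siMondoA cells and fell in siControl cells (log2 fold changes 0.20 and -0.30, difference 0.50, SE 0.07, edgeR adjusted p = 2.63e-04). SLC2A3 fell more in siMondoA cells (difference -0.65, edgeR adjusted p = 1.69e-04). For TXNIP (-0.42), RUBCN (0.29) and TFEB (0.15) the difference did not pass (edgeR adjusted p = 0.641, 0.172 and 0.617).

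The response was also set beside that of siMlx cells, which carry the partner's knockdown and share no library with the siMondoA groups. In siMlx cells MLX was left at 20.8% of the siControl mean with DXR and 26.6% without it. MLXIP was left at 3.65% and 5.6% in siMondoA cells, so the knockdowns differed in depth. The siMondoA response had fewer changes of 2-fold or more past the test, with 1047 higher and 500 lower, against 1284 and 864 with siMlx. Of the siMondoA calls, 5204 were shared in direction with siMlx cells (70.3% of the siMondoA calls and 61.2% of the siMlx calls), and 431 were opposite. The least-squares slope of siMondoA on siMlx log2 fold changes was 0.65 with a correlation across genes of 0.79. Such a slope is also lowered by an imperfect correlation, so it overstates how much smaller the siMondoA fold changes were. The difference passed for 2047 genes with a higher log2 fold change in siMondoA cells (15%) and for 1960 with a lower one (14.3%). Mitotic genes had a median of -2.08 in siMondoA cells and -3.01 in siMlx cells, with 35 of 54 differences passing upwards, and 47 of 50 replication genes passed upwards. Of 56 lysosomal genes, 1 passed upwards and 27 downwards.

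The interferon-stimulated genes had a median of 2.90 in siMondoA cells and 1.94 in siMlx cells, with 24 differences passing upwards and 1 downwards. No range over the alternative analyses is given for the list counts against siMlx, so how firm they are is not known here. Their mean log2 level was 3.06 to 3.50 in siMondoA DXR cells and -0.36 to 0.44 in siMondoA untreated cells, against -0.13 to 0.88 in siMlx DXR cells and -1.75 to -1.64 in siMlx untreated cells. The siMondoA cells had the higher level with and without DXR. BATF2 and MX1 had differences of 3.76 and 3.75, and GBP4 5.68, where the siMlx means were 0.263 CPM with DXR and 0.0711 CPM untreated and the call was lost in 10 alternative analyses. On the lower side the largest differences were those of UNC13A, a synaptic vesicle protein (-3.08), TNFRSF11B, the decoy receptor osteoprotegerin (-2.86), and WNT11, a signalling ligand (-2.63). TNFRSF11B did not pass in siMondoA cells, with 27.8, 25 and 40.9 CPM with DXR and 40.2, 41.4 and 36.5 CPM untreated, and its groups overlapped.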

How the data were processed

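RNA sequencing of 18 RPE-1 libraries was read from 2 deposited gene tables. Per the submitters' processing notes, bcl2fastq and TopHat2 2.1.1 were used with GRCh38. Which program counted reads, with which annotation and on which strand, is not given in the sources used here, so overlapping and antisense genes are uncertain. The authors deposited raw read counts per gene, which served for all tests, and RPKM values, used only for ranks by level. The gene length implied by counts and RPKM, taken as the median over libraries, was whole within 0.01 bases in all 24846 genes with a count.

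Groups came from the labels. Counts were fitted with edgeR 4.0.16 (R 4.3.3) over all 18 libraries with 1 mean per group, after filterByExpr by group (13676 genes) and TMM scaling, which left 12 residual degrees of freedom and gave a common biological variation (BCV) of 7.42%. Two-sided quasi-likelihood tests were adjusted by Benjamini-Hochberg over all tested genes, with a threshold of 0.05. The difference of 2 responses was an interaction contrast in the same fit. CPM use TMM-scaled library sizes. Library totals ran from 15503423 to 29219280, and replicates of a group correlated by at least 0.9946. Folds of genes at 0 use a floor of 3 counts over a group. Floors and exact 95% intervals cover counting error only.

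The members, the 38 gene lists and 4 added lists (interferon ligands and sensors, MHC class I, contractile genes, high mobility group) were chosen with earlier results of these data known. The 4 added lists were drawn up after values were seen. Named genes were a set of 17, the 12 largest changes in each direction past the test (no overlap of libraries, and 5 CPM or more as the larger group mean), the 6 largest differences from siControl and 3 from siMlx in each direction, and per list the 6 members with the smallest p and 3 against the majority. Some genes that this rule names are not reported here. Of the names, 23574 are current symbols in a gene name list or RefSeq, 1649 are older symbols and 7898 matched no single gene. Gene positions come from GENCODE 29 and promoter positions from RefSeq. Alternatives tried were DESeq2 1.42.0, RLE and upper-quartile scaling, other low-count filters, a fit of only the groups compared, a replicate block and leaving out each library. The procedure was run on simulated counts with the same dispersion in every gene and balanced changes in few genes. Those counts held no effect of library number, so the run did not test the scaling or such an effect under the conditions of these data.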

Additional observations from a re-analysis of the deposited data

Results flagged for a closer look

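The DXR response differed past the edgeR test (adjusted p under 0.05) between siMondoA and siControl cells for 49 of the named genes. Each value is the log2 fold change with siMondoA minus that with siControl. Among interferon-related genes it was 2.52 for OASL, 2.49 for IFIT2, 2.35 for OAS2, 2.49 for BATF2, 2.46 for MX1, 1.64 for TLR3, 1.40 for PARP12, 1.27 for SAMD9, 1.09 for IRF1, 1.08 for TAP1, 0.95 for TREX1, 1.25 for PSMB9 and 0.64 for PSMB8. Among genes of replication, repair and division it was 1.31 for POLA2, 1.28 for PCNA, 0.80 for MCM6, 0.45 for DNMT1, 1.76 for BRIP1, 0.51 for CHEK1, -0.81 for KIF20A and -0.69 for TK1.

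Among p53 targets and apoptosis genes it was -0.70 for CDKN1A, 1.05 for PMAIP1, -0.86 for BBC3, -0.54 for BMF and 0.54 for BCL2L13. Among secreted factors and NF-kB targets it was 1.25 for FGF2, -0.63 for IGFBP3, -0.47 for STC1, -1.45 for TNFRSF11B and 0.87 for TNFAIP3. Among genes of glucose metabolism and the MAX and MLX network it was -0.63 for MLXIP itself, -0.65 for SLC2A3, 0.61 for PGAM1, -0.49 for ARRDC2, 0.89 for KLF11, 0.36 for MAX and -0.40 for MNT. For the others it was 0.50 for PRDX3, 0.83 for CBR3, -0.57 for HIST1H2BK, -1.19 for HIST2H2BE, 2.33 for RN7SL2, -1.97 for TTC29, -1.80 for FANK1, -1.76 for RBM47, -1.59 for LINC01123, -1.58 for CSMD3 and -1.45 for TMEM132B.

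Between siMondoA and siMlx cells the response differed past the test for 6 genes named for that comparison, by 5.68 for GBP4, 3.76 for BATF2, 3.75 for MX1, -3.08 for UNC13A, -2.86 for TNFRSF11B and -2.63 for WNT11. The causes of these differences were not tested.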

How the results depend on the processing

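The DXR response of siMondoA cells gave 7407 calls, and 6745 to 7698 over the scalings, filters, DESeq2, the fit of only the groups compared and the replicate block. Leaving out 1 library gave 6677 to 6868 calls. Of 158 named genes called in this response, 154 passed in all 13 alternatives, and MLX, UNC13A, APAF1 and CDKN2D did not. The difference from siControl gave 1384 calls, and 918 to 1384 on leaving out 1 library, with 541 to 805 on the higher side and 316 to 579 on the lower side. Of its 49 named genes, 36 passed in all alternatives, and the 13 others (MLXIP, OASL, OAS2, KIF20A, MX1, RN7SL2, TTC29, CHEK1, SAMD9, PSMB9, ARRDC2, KLF11 and MAX) missed the threshold in at least 1. With only the groups compared, it gave 909 higher and 433 lower. The difference from siMlx gave 4007 calls, and 3463 to 3980 on leaving out 1 library. Signs turned for genes that did not pass. CXCL8, listed as IL8, ranged from -1.93 to 0.01 on leaving out 1 library, 0.01 being the value without siMondoA untreated replicate 2. FANK1 ranged from -0.18 to 0.10, with 0.07 and 0.03 without siMondoA untreated replicates 1 and 2 and 0.10 without siMondoA DXR replicate 3. The causes were not tested.

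With the replicate number as a block, the response gave 7698 calls, the difference from siControl 1818 (1016 higher, 802 lower) and the difference from siMlx 4459. Deviations of same-numbered siMondoA libraries correlated by 0.205, -0.055 and 0.134, and DXR library 2 correlated best with untreated library 3. The labels give the numbers no meaning and 1 pair was not above 0.1, so the numbers were not treated as pairs, although the second principal component followed them. Whether same-numbered libraries share a step was not tested. The median of all genes lay between -0.04 and -0.01 over the scalings. Counts of 0 limit IFNB1, TNFSF10 and ARRDC4 to bounds or wide intervals.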
